A study of Mus musculus with 3 samples.

Results

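The genes described here encode the enzymes that cut, shed and crosslink extracellular matrix, together with the inhibitors of the cutting enzymes. They were chosen by symbol alone, as every listed gene of the Mmp, Timp, Adam, Adamts, Lox and Plod families, with Mmp8 and Mmp9 left out. Of the 19091 genes in the count tables, 68 met this rule: 18 matrix metalloproteinases (Mmp), 4 tissue inhibitors of metalloproteinases (Timp), 21 Adam genes, 17 Adamts genes, 5 lysyl oxidases (Lox and Loxl) and 3 lysyl hydroxylases (Plod). All 68 had at least 1 UMI (unique molecular identifier, here 1 captured RNA molecule) in cells, 36 had at least 30 UMIs over the 3 libraries, and 32 had 1 to 29.

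Matrix metalloproteinases are zinc enzymes that cut collagens, elastin and other matrix proteins, and most are secreted as inactive precursors. The Timp proteins bind and block them. Adam proteases sit in the membrane and release the outer parts of other membrane proteins, whereas Adamts proteases are secreted and process procollagens or cut proteoglycans. Lysyl hydroxylases modify collagen inside the cell, and lysyl oxidases then crosslink collagen and elastin fibres outside it. In the liver, fibroblasts and stellate cells are known sources of the fibre-forming enzymes, and macrophages of several metalloproteinases.

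The study followed how existing connective tissue is carried into wounds and crosslinked there, and used Drop-seq, a droplet method that tags the RNA of each cell with a barcode, on adult C57BL/6 mouse livers. The control library was labelled as sham surgery with tissue taken after 1 day, and per the study's methods came from uninjured liver of the same area. The other libraries were labelled as irreversible electroporation (IRE, electric pulses that kill cells locally) with tissue taken 1 day and 7 days post-injury (p.i.). The labels give 8 pulses of 50 ms at 75 V, 1 s apart, and a biopsy punch of 4 mm, while the study's methods state a lower voltage. Each library was pooled from several livers before sequencing, so the animals cannot be separated, and there was 1 library per condition. No test across samples was therefore possible, and no p-value is given.

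Barcodes with at least 200 detected genes were taken as cells. These were 10386 in the library labelled control, 9253 in the library labelled 1 day p.i. and 5624 in the library labelled 7 days p.i., with 8013800, 6107866 and 3058967 UMIs and medians of 595, 509 and 456.5 UMIs per cell. Mitochondrial genes took 20.5%, 21.7% and 4.10% of these UMIs. The content of the libraries went against their labels in several respects. Collagen transcripts of connective tissue cells were highest in the library labelled control, where Col1a1 stood at 232 and Col3a1 at 700 CPM (counts of UMIs per 1000000 UMIs of all cells of a library, or of a cell class where one is named), against 2.78 and 19.8 in the library labelled 1 day p.i. and 2.62 and 5.23 in the library labelled 7 days p.i. The macrophage gene Gpnmb was at 439, 3.11 and 125 CPM in the same order. The hepatocyte gene Alb (533, 11571 and 108), the Kupffer cell gene Clec4f (946, 1920 and 171) and the sinusoidal endothelial gene Stab2 (143, 373 and 17.7) were highest in the library labelled 1 day p.i. The neutrophil gene S100a8 was at 1830, 288 and 19867. No library was reassigned. Each is called by its label throughout, and every direction rests on the labels of the libraries compared, that of 7 days p.i. against 1 day p.i. included.

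The libraries also shared barcode sequences: 233 between control and 1 day p.i., 202 between control and 7 days p.i., and 738 between 1 day p.i. and 7 days p.i., and 1.85%, 4.99% and 6.03% of the cells of the respective libraries carried a barcode that was listed in another. The UMI counts mark molecule ends and are not scaled by gene length, and genes are compared with themselves across libraries. Intervals are 95% intervals of counting error only, exact Poisson for a level and conditional binomial for a ratio. In library sums, fewer cells of a type and less RNA per cell cannot be told apart.

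Summed over all members, the libraries labelled control, 1 day p.i. and 7 days p.i. held 1634, 1035 and 1502 CPM, and the families differed widely in direction. Mmp transcripts were at 564 (interval 548 to 581), 114 (105 to 123) and 365 (343 to 387) CPM. Lox and Loxl transcripts were at 88.5 (82.1 to 95.2), 35.2 (30.7 to 40.2) and 5.23 (2.99 to 8.49), and Adamts transcripts at 101 (93.8 to 108), 63.5 (57.4 to 70.2) and 33.7 (27.5 to 40.8). Both of these families were thus lowest in the library labelled 7 days p.i. Adam transcripts were highest there, at 796 (765 to 829), against 380 (367 to 394) in control and 411 (396 to 428) at 1 day p.i. Timp transcripts were at 389 (375 to 403), 320 (306 to 335) and 192 (177 to 208). Single members held much of these sums. Of the Mmp UMIs, Mmp12 was 52.4% in control and Mmp14 59.3% at 1 day p.i. Timp3 was 83.0% of the Timp UMIs at 1 day p.i., and Adam8 48.5% of the Adam UMIs at 7 days p.i. Plod transcripts differed least, at 112 (105 to 120), 90.9 (83.5 to 98.8) and 110 (98.4 to 122), and their ratio of 7 days p.i. to 1 day p.i., 1.21 (1.05 to 1.39), fell to 0.986 when mitochondrial UMIs were left out of the totals.

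A gene was counted as past 2-fold when its level differed at least 2-fold and the 2 libraries compared held at least 30 UMIs of it. In the library labelled 1 day p.i. against control, 3 of 35 members were higher and 14 were lower, where over all 12311 genes 13.1% were higher and 6.47% lower. The median log2 ratio was -0.71 for the members and 0.05 for all genes. At 7 days p.i. against control, 7 of 34 members were higher and 17 lower, against a background of 8.8% higher and 24.5% lower, with medians of -1.06 and -0.26. Between the libraries labelled 7 days p.i. and 1 day p.i., 11 of 27 members were higher in the former and 9 lower, against 11.5% and 30.3%, with medians of 0.51 and -0.29. That split moved with the scaling. It was 13 higher and 7 lower relative to the median gene, 11 and 11 over every listed barcode, and 9 and 10 without mitochondrial UMIs. The background moved too. Of all genes past 2-fold, 27.4% were higher in the main setting, and 39.3%, 27.5% and 18.7% under these 3 settings. Among members the shares were 55%, and 65%, 50% and 47.4%. Without mitochondrial UMIs the medians were 0.21 for the members and -0.58 for all genes. With a minimum of 10 UMIs they were -0.16 and -0.38. Without the shared barcodes the member counts were 2 and 14, 7 and 17, and 11 and 9, where 66.7%, 26.8% and 27.8% of all genes past 2-fold were higher. Each library enters 2 of these comparisons, so they are not independent.

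**Figure D1:**
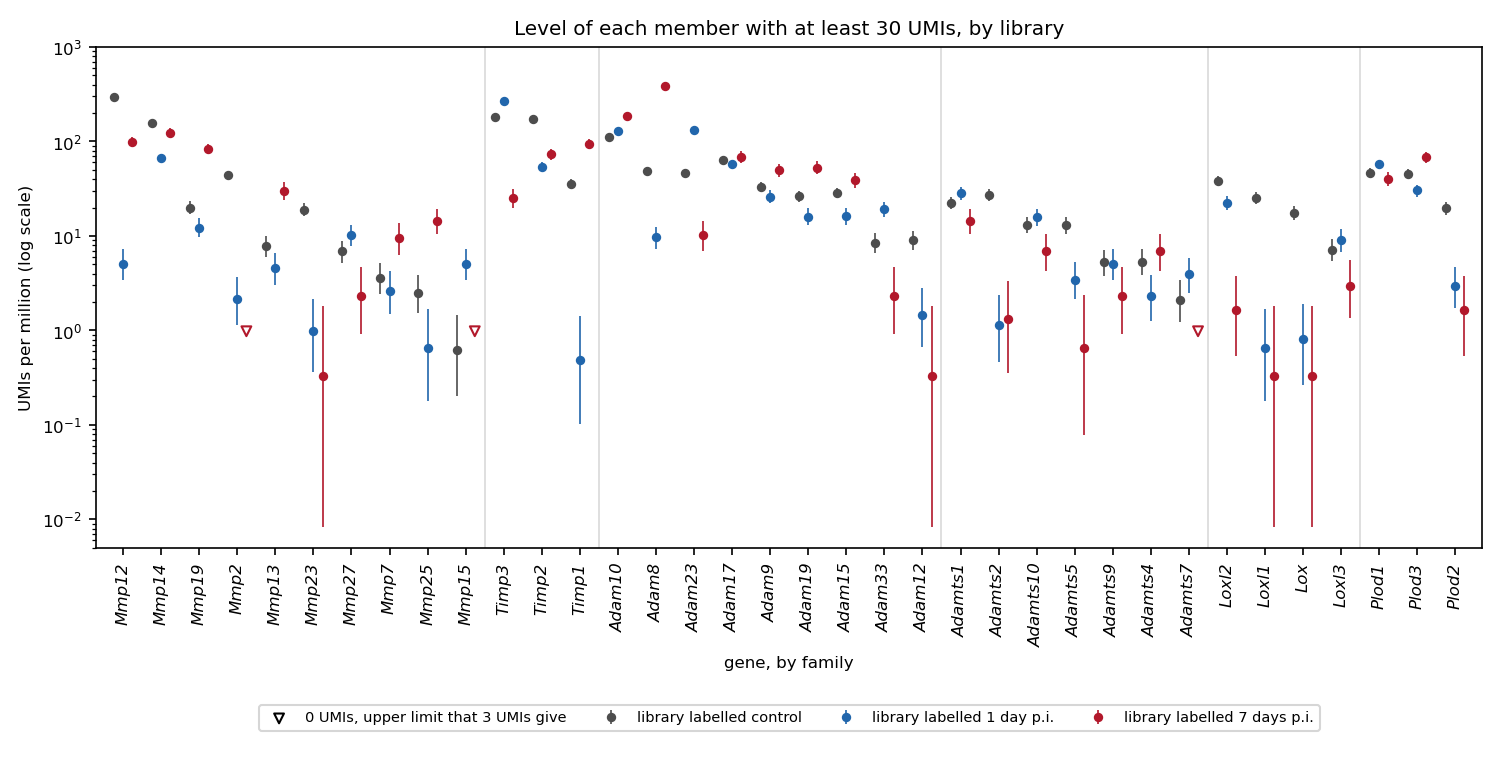
Level of the 36 members with at least 30 UMIs, as CPM on a log axis, in the libraries labelled control, 1 day p.i. and 7 days p.i., with exact Poisson 95% intervals. Open triangles mark genes at 0 UMIs, drawn at the limit that 3 UMIs would give. Mmp12 ran from 5.08 to 296 CPM and Timp1 from 0.491 to 93.5, while Adam10 stayed between 112 and 184.

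**Figure D2:**
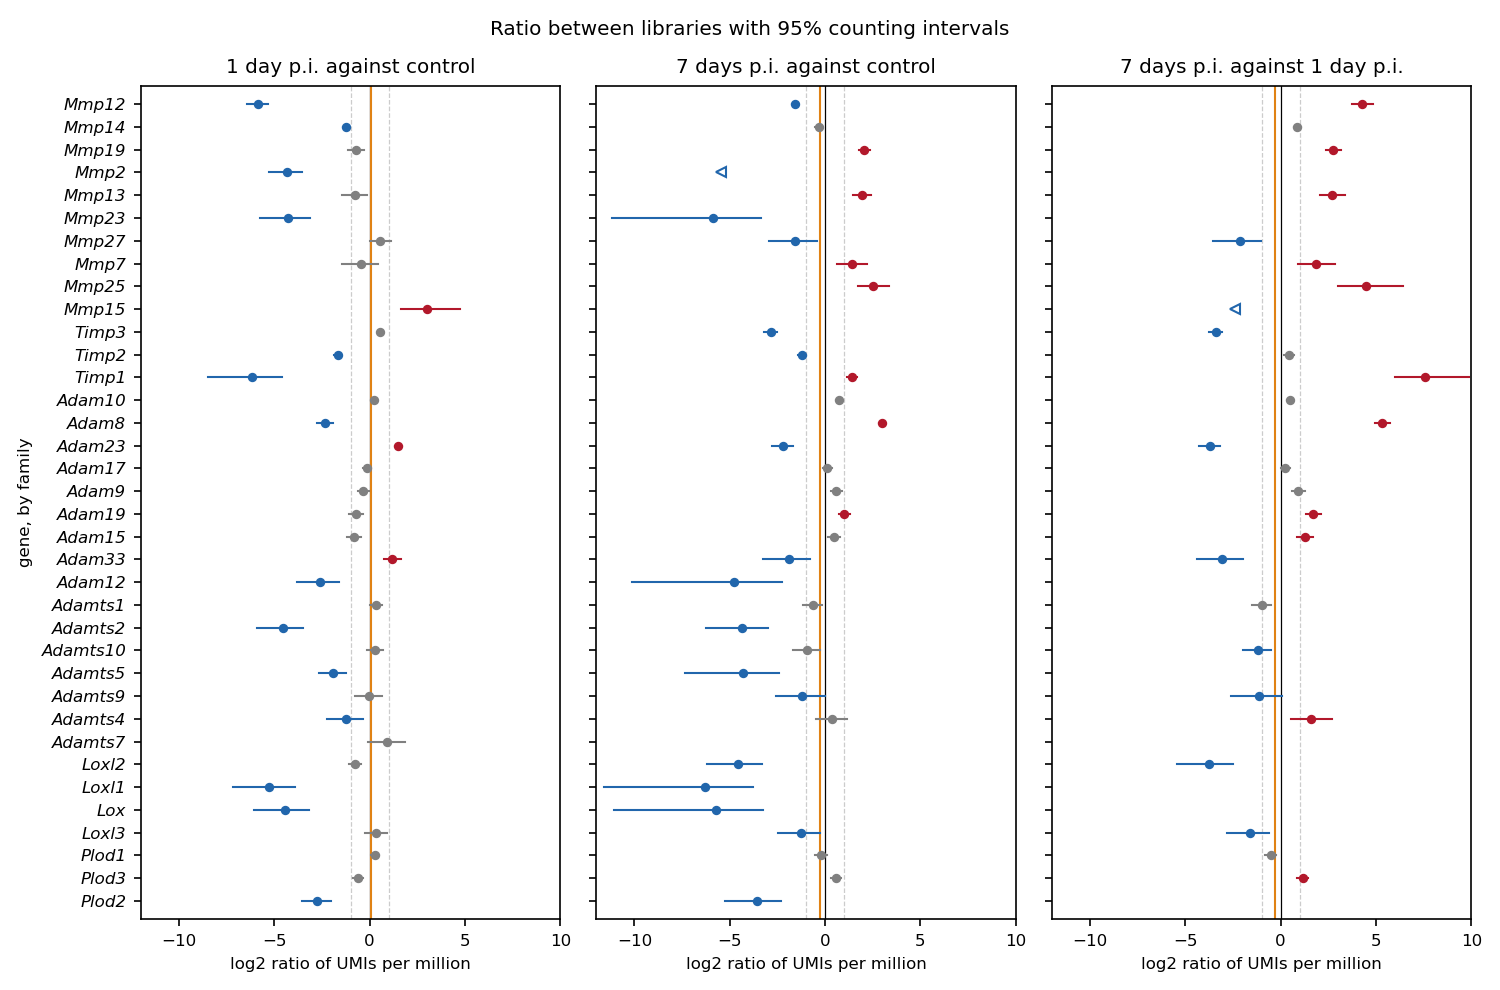
Log2 ratio of CPM for each member with at least 30 UMIs in the 2 libraries compared, with 95% counting intervals. Red points were at least 2-fold higher, blue points at least 2-fold lower, grey points between, open triangles are bounds for genes at 0 UMIs, dashed lines mark 2-fold and the orange line the median of all genes. The 1 day p.i. panel has 14 blue and 3 red members, and the 7 days p.i. against 1 day p.i. panel 9 blue and 11 red.

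Mmp12, the macrophage elastase, was far lower in the library labelled 1 day p.i. than in the other libraries. It held 2371 UMIs in the library labelled control, 303 at 7 days p.i. and 31 at 1 day p.i., or 296 (284 to 308), 99.1 and 5.08 CPM. The intermediate library was that of 7 days p.i., at 19.5-fold (13.5 to 29.2) the level of 1 day p.i. and 2.99-fold (2.65 to 3.38) below control. The library labelled 1 day p.i. was 58.3-fold (41.0 to 86.0) below control. Mmp13, a collagenase, had another order. It was at 7.86, 4.58 and 30.1 CPM (63, 28 and 92 UMIs), and was highest at 7 days p.i., 3.83-fold (2.75 to 5.36) above control and 6.56-fold (4.26 to 10.4) above 1 day p.i., the latter 3.82-fold among cells with at most 20% mitochondrial UMIs.

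Cells were placed in 13 classes by sets of 8 gate markers each, 3 of which were not in the tables. Hepatocytes apart, a cell took a class when it carried at least 2 different markers of it and more than of any other class. A cell was hepatocyte when the 8 hepatocyte markers took at least 10% of its UMIs and it carried fewer than 2 markers of every other class. This placed 66.6%, 69.0% and 75.1% of the cells of the 3 libraries. Class names stand for these gates. Kupffer-gated cells numbered 2051, 3301 and 194 and held C1qb, a macrophage complement gene that the gate did not use, at 3624, 2724 and 3578 CPM. Endothelial-gated cells numbered 1195, 2458 and 47, with the held-back sinusoidal gene Clec4g at 1967, 2072 and 2481. The Gpnmb/Trem2 macrophage gate held 720, 51 and 78 cells. Its held-back gene Ctsd was at 6640 CPM in control and 3588 at 7 days p.i., but at 482 at 1 day p.i., below the 636 of the other cells of that library, so the 51 cells are not used as that class. The Arg1/Ccl2 macrophage gate held 34, 31 and 1689 cells and the mesenchymal gate 452, 14 and 1. At 7 days p.i., 2 gates were only partly set apart by their held-back genes. Monocyte-gated cells there held Ms4a6c at 1376 CPM against 616 in the other cells, but Ccl9 at 1087 against 1696. Arg1/Ccl2 macrophages held Spp1 at 7123 against 3059, but Ccl4 at 989 against 922. Values of these classes at 7 days p.i. are those of the gates.

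The gated cells with most Mmp12 differed between libraries. In the library labelled control, 1835 of its 2371 UMIs (77.4%) lay in Gpnmb/Trem2 macrophages, at 2167 CPM (interval 2069 to 2268). Of these 720 cells 262 carried an Mmp12 UMI, with up to 141 in 1 cell, against 6 of 383 T and NK cells, whose median depth was 630 UMIs against 935. In the library labelled 7 days p.i., the 78 cells of the same gate held 0 Mmp12 UMIs in 52672, which allows up to 57.0 CPM and makes the level at least 38.0-fold lower. The gate was less set apart in that library. Its held-back genes Ctsd and Lgals3 were at 3588 and 6854 CPM against 1996 and 3566 in the other cells. Control had 6640 and 5311 against 1147 and 579. Whether the gate holds the same kind of cell in both libraries was not tested. At 7 days p.i. the highest Mmp12 level was in Kupffer-gated cells, with 88 UMIs in 31 of 194 cells, or 595 CPM (477 to 733). Kupffer-gated cells of control stood at 82.8 (70.5 to 96.6) and those of 1 day p.i. at 5.93, so the 7 days p.i. level was 7.19-fold (5.48 to 9.38) and 100.3-fold (57.6 to 187) above them. Neutrophils of the same library, which made up more of its cells, were at 33.7 and Arg1/Ccl2 macrophages at 145.

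Mmp13 was also highest in Kupffer-gated cells at 7 days p.i. Its level in Kupffer-gated cells was 243 CPM there (36 UMIs in 16 of 194 cells), against 12.3 in control and 6.33 at 1 day p.i., a 19.9-fold (11.5 to 34.8) and a 38.5-fold (20.8 to 74.3) difference. Arg1/Ccl2 macrophages at 7 days p.i. held 44.5 CPM of Mmp13 and neutrophils 1 UMI. Of the 194 Kupffer-gated cells, 31 carried Mmp12, 16 carried Mmp13 and 9 carried both. In control, all 14 Gpnmb/Trem2 macrophages with Mmp13 also carried Mmp12. These joint counts share the depth of each cell and are given as a description. The 8 gate genes of Kupffer cells were all detected in the 194 cells. The gate selected cells by these same genes, so their levels describe the gated cells and do not check the class. Marco, a scavenger receptor, and Vsig4, a complement receptor, were at 4254 and 1643 CPM there, against 2020 and 828 in Kupffer-gated cells of control. Clec4f was at 2610 against 3430, Cd5l at 3402 against 3062, Timd4 at 264 against 285, Folr2 at 636 against 599.9, C1qa at 2022 against 1867 and C1qc at 2773 against 2376.

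**Figure D3:**
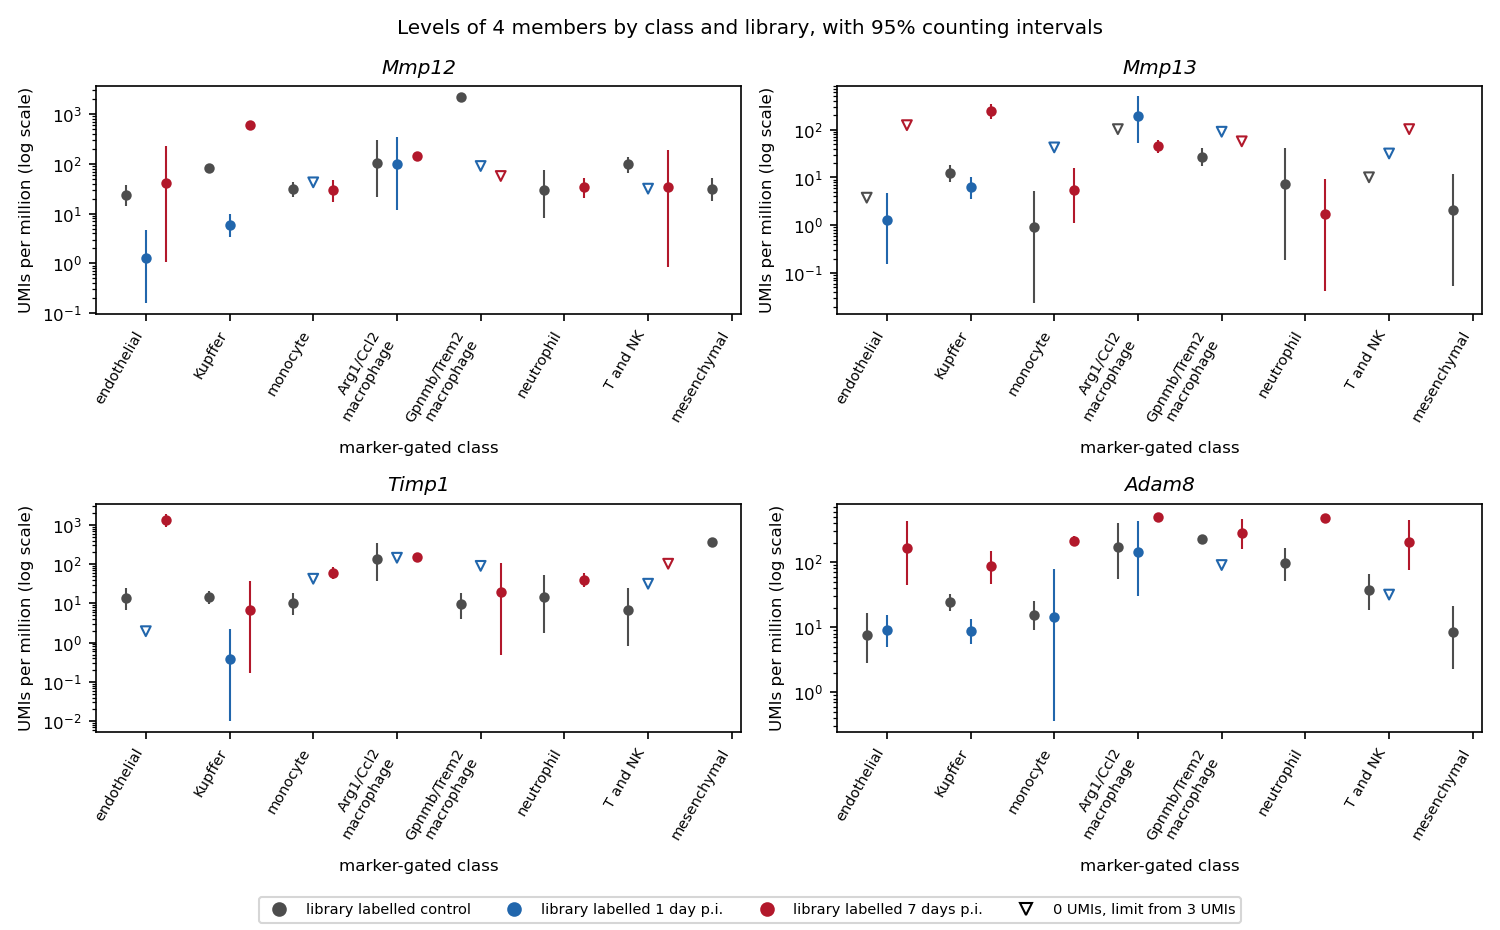
CPM on a log axis, with exact Poisson 95% intervals, of Mmp12, Mmp13, Timp1 and Adam8 in marker-gated classes of each library with at least 20000 UMIs. Open triangles mark 0 UMIs at the limit that 3 UMIs would give. Mmp12 was at 2167 in Gpnmb/Trem2 macrophages of the library labelled control and at 595 in Kupffer-gated cells of the library labelled 7 days p.i., and Adam8 was at 494 in Arg1/Ccl2 macrophages and 487 in neutrophils of the latter.

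Mmp12 and Mmp13 are neighbours in a run of 10 Mmp genes on chromosome 9, which from Mmp13 to Mmp7 also holds the members Mmp3, Mmp10, Mmp27 and Mmp20. Their promoters are shown because both genes were highest in the same gated cells at 7 days p.i. and because the run shares letters close to the start sites. In the RefSeq windows of GRCm38.p6, from 250 bases before to 50 bases after a start, 39 of the 68 members were matched by symbol, with 44 windows. The letters TGANTCA are the same pattern on both strands and include TGACTCA and TGAGTCA, those bound by AP-1 factors. The pattern is wider than these, and the Mmp20 match is TGAATCA. It occurred in 8 of the 44 windows (18.2%) and in 7.81% of all 32851 windows. Of the 8 windows with TGANTCA, 6 belong to the run, which has 9 of the 44. In each of the 6 the letters TATAA followed on the same strand, 12 to 41 bases further on. Of all windows 2565 held TGANTCA, and 376 of these held it before TATAA, or 1.14% of all windows. TATAA alone was found in 17.5%. The 9 windows come from neighbouring genes of 1 family and are not independent. The 2 motifs do not overlap in these windows, and the Mmp27 window held neither. The stretches printed here run 5′ to 3′ on the plus strand, from 15 bases before TGANTCA to 15 bases after TATAA, with both in capitals. Mmp13 is chr9:7272464-7272517, Mmp12 chr9:7347315-7347397 at the second of its 2 listed starts, Mmp3 chr9:7445761-7445834, Mmp10 chr9:7502264-7502332, Mmp20 chr9:7628121-7628192 and Mmp7 chr9:7692012-7692083.
Mmp13: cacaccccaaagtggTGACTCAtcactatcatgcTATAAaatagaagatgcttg
Mmp12: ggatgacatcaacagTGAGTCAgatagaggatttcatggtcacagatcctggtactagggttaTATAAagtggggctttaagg
Mmp3: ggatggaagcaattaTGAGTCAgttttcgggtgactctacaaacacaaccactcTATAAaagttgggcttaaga
Mmp10: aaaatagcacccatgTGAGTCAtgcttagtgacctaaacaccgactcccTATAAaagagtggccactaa
Mmp20: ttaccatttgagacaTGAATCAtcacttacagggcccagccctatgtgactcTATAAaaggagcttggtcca
Mmp7: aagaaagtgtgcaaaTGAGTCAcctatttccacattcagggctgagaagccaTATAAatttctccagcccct

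The match describes letters and no binding was measured. Within the run the levels differed. Mmp3, Mmp10 and Mmp20 had 13, 5 and 1 UMIs over all cells. Mmp7, matrilysin, an epithelial enzyme, had 29, 16 and 29 UMIs, or 3.62, 2.62 and 9.48 CPM, and was 2.62-fold (1.51 to 4.54) higher at 7 days p.i. than in control. That ratio was 1.997 over every listed barcode, 5.64 among barcodes with at least 400 genes and 4.01 among cells with at most 20% mitochondrial UMIs. Among the classes it was highest in cholangiocyte-gated cells. These were at 248 CPM in control (12 UMIs in 9 of 53 cells) and 1203 at 7 days p.i. (20 UMIs in 8 of 15 cells). Mmp27, the gene without these letters, was at 6.86, 10.2 and 2.29 CPM, and Kupffer-gated cells held 65.5% of its UMIs in control and 69.4% at 1 day p.i., at 18.4 and 17.0 CPM. Its 7 UMIs at 7 days p.i. put it 4.44-fold (2.03 to 11.5) below 1 day p.i. and 2.999-fold below control in level.

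The metalloproteinases of connective tissue cells were highest in the library labelled control. Mmp14, a membrane-bound collagenase that activates Mmp2, held 1261, 412 and 380 UMIs, or 157, 67.5 and 124 CPM, and was 2.33-fold (2.09 to 2.61) lower at 1 day p.i. than in control. Mesenchymal cells of control held it at 1107 CPM, endothelial cells there at 248 and Kupffer-gated cells at 70.0. Within endothelial cells the level at 1 day p.i. was 99.3, a ratio of 0.401 (0.322 to 0.497) to control, so the difference between these libraries was also present inside this class. The 47 endothelial cells at 7 days p.i. held Mmp14 at 413.5 CPM, above control, but from 10 UMIs. Mmp2, gelatinase A, held 350, 13 and 0 UMIs. Its level in control was 43.7 CPM, 20.5-fold (11.8 to 38.9) above 1 day p.i., and the 0 UMIs at 7 days p.i. allow up to 0.981, at least 44.5-fold lower. Over every listed barcode, 1 UMI gave a ratio of 0.0058. Mesenchymal cells held 83.4% of the Mmp2 UMIs of control, at 612 CPM. Mmp23 (19.0, 0.982 and 0.327 CPM) had the same order, with 74.3% of its control UMIs in mesenchymal cells.

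A different set of metalloproteinases was highest in the library labelled 7 days p.i. Mmp19 held 160, 75 and 253 UMIs, or 19.97, 12.3 and 82.7 CPM, and was 4.14-fold (3.39 to 5.08) above control and 6.74-fold (5.19 to 8.84) above 1 day p.i. Its levels at 7 days p.i. were 104 in Arg1/Ccl2 macrophages, 80.6 in monocytes and 55.6 in neutrophils. Monocytes of control were at 16.6, a 4.85-fold (2.75 to 8.93) difference within the gate. Mmp25, a membrane-anchored enzyme of leukocytes, held 20, 4 and 44 UMIs, or 2.496, 0.655 and 14.4 CPM, was 5.76-fold (3.33 to 10.3) above control at 7 days p.i., or 8.94-fold over every listed barcode, and had 28 of the 44 UMIs in neutrophils. Mmp15, a membrane-type enzyme, was highest in the library labelled 1 day p.i., with 5, 31 and 0 UMIs, 8.13-fold (3.14 to 26.8) above control. Of its 31 UMIs in that library, 13 lay in 13 Kupffer-gated cells. The library labelled 1 day p.i. also held most of the hepatocyte transcripts, with the 8 gate markers of hepatocytes at 1522, 26383 and 352 CPM. Their part in the result was not tested.

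The 3 measured Timp genes had 3 different orders. Timp1, the inducible inhibitor, held 283, 3 and 286 UMIs, or 35.3, 0.491 and 93.5 CPM. The library labelled 1 day p.i. was 71.9-fold (24.4 to 351) below control from its 3 UMIs. Timp1 was 2.65-fold (2.24 to 3.13) higher at 7 days p.i. than in control, a value that fell to 1.88 among cells with at most 20% mitochondrial UMIs. Mesenchymal cells held 60.4% of its control UMIs, at 358 CPM, with 87 of 452 cells carrying it against 2 of 383 T and NK cells. In the library labelled 7 days p.i., where 1 cell passed the mesenchymal gate, Arg1/Ccl2 macrophages held 145 of the 286 UMIs at 154 CPM (130 to 181), and monocytes were at 60.5 against 10.1 in control, 5.96-fold (2.94 to 13.1) higher. The endothelial level at 7 days p.i., 1323 CPM, came from 32 UMIs in 4 of 47 cells, 16 of them in 1 cell. It stood at 13.8 in control and at 0 UMIs in 2458 cells at 1 day p.i.

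Timp3, an inhibitor that stays bound to matrix, held 1443, 1624 and 77 UMIs, or 180, 266 and 25.2 CPM. It was 10.6-fold (8.40 to 13.5) lower at 7 days p.i. than at 1 day p.i. Within endothelial cells a difference of that size was not seen. There Timp3 was at 579 (316 to 971) CPM in the library labelled 7 days p.i., from 14 UMIs in 47 cells, against 471 at 1 day p.i. and 666 in control, and the ratio of 7 days p.i. to 1 day p.i. was 1.23 (0.669 to 2.08). Mesenchymal cells of control held Timp3 at 828. Endothelial-gated cells were 11.5%, 26.6% and 0.836% of all cells. Kupffer-gated cells held Timp3 at 44.5 in control and 159 at 1 day p.i., 3.57-fold (2.82 to 4.55) higher, and T and NK cells at 30.3 and 116, 3.84-fold (1.45 to 10.5) higher. The part of free RNA from endothelial cells in these values was not tested. Timp2 held 1388, 330 and 225 UMIs, or 173, 54.0 and 73.6 CPM, and was 3.21-fold (2.84 to 3.63) and 2.35-fold (2.04 to 2.72) below control. The ratio of 7 days p.i. to control was 0.507 relative to the median gene and 0.583 over every listed barcode, both short of 2-fold. Timp2 in control stood at 1094 CPM in 14 mesothelial-gated cells, 874 in mesenchymal cells and 321 in Gpnmb/Trem2 macrophages. The remaining gene, Timp4, had 1 UMI in all.

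Among the Adam genes, Adam8, a protease of leukocytes, stood apart. It held 389, 59 and 1182 UMIs, or 48.5, 9.66 and 386 CPM, and was at 7 days p.i. 7.96-fold (7.09 to 8.95) above control and 40.0-fold (30.8 to 52.9) above 1 day p.i. In the library labelled 7 days p.i. the level was 494 (451 to 541) in Arg1/Ccl2 macrophages, 487 (432 to 546) in neutrophils and 213 (176 to 255) in monocytes. The first 2 do not differ beyond their counting intervals. The gates also differed within themselves between libraries, since neutrophils of control were at 95.9 and monocytes at 15.7, which makes 7 days p.i. 5.08-fold (2.92 to 9.65) and 13.6-fold (8.11 to 24.1) higher. In control the highest level was in Gpnmb/Trem2 macrophages, at 231 (200 to 266). T and NK cells at 7 days p.i. had 6 UMIs in 60 cells, or 205 CPM, against 37.0 in control. Barcodes with fewer than 200 genes held Adam8 at 538 CPM at 7 days p.i. and at 30.7 in control. The part of free RNA in the library labelled 7 days p.i. was not tested.

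Adam23, a family member that lacks protease activity, was highest in endothelial cells. It held 372, 803 and 31 UMIs, or 46.4, 131 and 10.1 CPM, 2.83-fold (2.502 to 3.21) above control at 1 day p.i. and 12.97-fold (9.07 to 19.2) below 1 day p.i. at 7 days p.i. Endothelial levels were 277 CPM in control and 247 at 1 day p.i., and 331 in the library labelled 7 days p.i. (8 UMIs), and each ratio between these had an interval that included 1. In control this was 17.7-fold (10.8 to 30.9) above monocytes, the next class with at least 10 UMIs. At 1 day p.i. Kupffer-gated cells held 75.1 against 15.3 in control, 4.90-fold (3.32 to 7.47) higher. Outside the endothelial gate, the endothelial gene Clec4g was at 652 CPM at 1 day p.i. against 123 in control. The part of free RNA from endothelial cells in the Adam23 value was not tested. Adam33 was the other Adam gene past 2-fold higher at 1 day p.i., with 68, 117 and 7 UMIs and a ratio of 2.26 (1.66 to 3.09) to control. Its highest level there was 245 CPM in cholangiocyte-gated cells, from 22 UMIs in 10 of 43 cells.

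The broadly expressed sheddases differed less between libraries. Adam10, the sheddase of Notch receptors and cadherins, held 900, 792 and 564 UMIs, or 112, 130 and 184 CPM, and Adam17, which releases tumour necrosis factor, held 512, 353 and 210, or 63.9, 57.8 and 68.7. Neither was past 2-fold in any comparison. Among classes with at least 10 of their UMIs, both were highest in Kupffer-gated cells in all 3 libraries, with Adam10 at 166, 147 and 216 CPM of the class, and Adam17 at 99.1, 78.3 and 94.7. Their intervals at 7 days p.i. overlap those of monocytes. At 1 day p.i. the Adam10 ratio to endothelial cells, the next class, was 1.15 (0.968 to 1.38). Adam9, another membrane sheddase (32.7, 26.03 and 49.4 CPM), and Adam15, which also binds integrins (28.6, 16.2 and 39.2), were lowest at 1 day p.i. The ratio of 7 days p.i. to 1 day p.i. for Adam15 was 2.42 (1.84 to 3.19), or 1.97 without mitochondrial UMIs. Adam19, a sheddase of neuregulin, was at 26.3, 16.0 and 53.0 CPM, and its 2.01-fold (1.63 to 2.48) excess at 7 days p.i. over control was 1.18-fold among barcodes with at least 400 genes and 1.67-fold without mitochondrial UMIs. Over 1 day p.i. it was 3.30-fold (2.55 to 4.29), and 1.92-fold at 400 genes. Neutrophils of the library labelled 7 days p.i. held it at 109 (84.5 to 140), 2.99-fold (1.79 to 5.21) above monocytes. Adam12, a marker of activated mesenchymal cells, had 72, 9 and 1 UMIs, and 53 of the 72 lay in mesenchymal cells.

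The Adamts genes did not share 1 order. Adamts2, the procollagen N-proteinase, held 218, 7 and 4 UMIs and Adamts5, an aggrecanase, 104, 21 and 2. In level Adamts2 was 23.7-fold (11.3 to 59.7) below control at 1 day p.i. and 20.8-fold (8.01 to 77.0) below it at 7 days p.i. Mesenchymal cells of control held 77.1% of the Adamts2 UMIs, at 352 CPM, and 74.0% of those of Adamts5, at 161. Adamts1, which cuts versican, was at 22.5, 28.2 and 14.4 CPM, and Adamts10, a protein of the fibrillin network, at 13.1, 15.7 and 6.87. The ratio of 7 days p.i. to 1 day p.i. was 0.437 for Adamts10, or 0.533 relative to the median gene. Adamts1 in endothelial cells was at 86.9, 54.2 and 496 (256 to 867) CPM, and Adamts4, an aggrecanase, at 20.1, 3.27 and 455 (227 to 814). The values at 7 days p.i. rest on a few cells, with the 12 Adamts1 UMIs in 5 of 47 cells, 5 of them in 1 cell, and the 11 Adamts4 UMIs in 4 cells, 6 of them in 1 cell. They are 5.71-fold (2.82 to 10.6) and 22.6-fold (9.47 to 51.8) above control, and Timp1 was also higher in these 47 cells. Over the whole library Adamts4 stood at 5.37, 2.29 and 6.87 CPM, 2.34-fold (1.26 to 4.63) below control at 1 day p.i. and 2.995-fold (1.45 to 6.37) above 1 day p.i. at 7 days p.i. Among barcodes with at least 400 genes, its level at 7 days p.i. was 8.33-fold that at 1 day p.i. and 3.23-fold that in control, against 1.28-fold (0.721 to 2.20) at 200 genes. Adamts7 had 17, 24 and 0 UMIs and was not past 2-fold with enough UMIs in any comparison. Adamts9, with 42, 31 and 7 UMIs, was 2.29-fold (1.02 to 6.04) below control at 7 days p.i., and relative to the median gene the ratio was 0.521.

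Lox, Loxl1 and Loxl2 lay mostly in mesenchymal cells in the library labelled control. Lox held 140, 5 and 1 UMIs, Loxl1, the elastin-associated lysyl oxidase, 203, 4 and 1, and Loxl2, a collagen IV crosslinker, 307, 137 and 5. In level Lox was 21.3-fold (8.93 to 66.7) and Loxl1 38.7-fold (14.9 to 143) lower at 1 day p.i. than in control. Loxl2 was not past 2-fold in that comparison, at 38.3 against 22.4 CPM, with a ratio of 0.586 (0.475 to 0.718) that was 0.301 among cells with at most 20% mitochondrial UMIs. Mesenchymal cells of control held 85.0%, 75.9% and 65.8% of the 3 genes' UMIs, at 249, 323 and 423 CPM. Loxl2 was also present in endothelial cells, at 34.0 in control and 46.4 at 1 day p.i., where they held 51.8% of its UMIs, a ratio of 1.36 (0.865 to 2.21). Loxl3, a further lysyl oxidase (7.11, 9.005 and 2.94 CPM), had 28.1% of its control UMIs in mesenchymal cells, at 1.78-fold (0.822 to 3.86) the endothelial level. It was 3.06-fold (1.501 to 7.04) lower at 7 days p.i. than at 1 day p.i. and 2.42-fold (1.19 to 5.55) lower than in control, with ratios of 0.59996 and 0.584 among barcodes with at least 400 genes. The 5 genes together held 16 UMIs at 7 days p.i.

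The lysyl hydroxylases split. Plod2, which hydroxylates the telopeptides that lysyl oxidases crosslink, held 158, 18 and 5 UMIs, was 6.69-fold (4.10 to 11.6) and 12.1-fold (5.06 to 37.7) below control, and had 81.0% of its control UMIs in mesenchymal cells at 268 CPM. Plod1 held 375, 352 and 123 UMIs, or 46.8, 57.6 and 40.2 CPM, and Plod3 held 367, 185 and 208, or 45.8, 30.3 and 68.0. Plod1 was not past 2-fold in any comparison, while Plod3 was 2.24-fold (1.83 to 2.75) higher at 7 days p.i. than at 1 day p.i., or 1.83-fold without mitochondrial UMIs. Their highest levels lay in leukocyte gates. For Plod1 these were Kupffer-gated cells (92.5, 68.8 and 122). For Plod3 they were monocytes in control (75.7, against 71.3 in mesenchymal cells) and at 7 days p.i. (110). Endothelial cells were next for Plod1, at 68.0 in control and 62.1 at 1 day p.i., and the intervals of both ratios included 1. The interval of the Plod3 ratio in control also included 1.

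**Figure D4:**
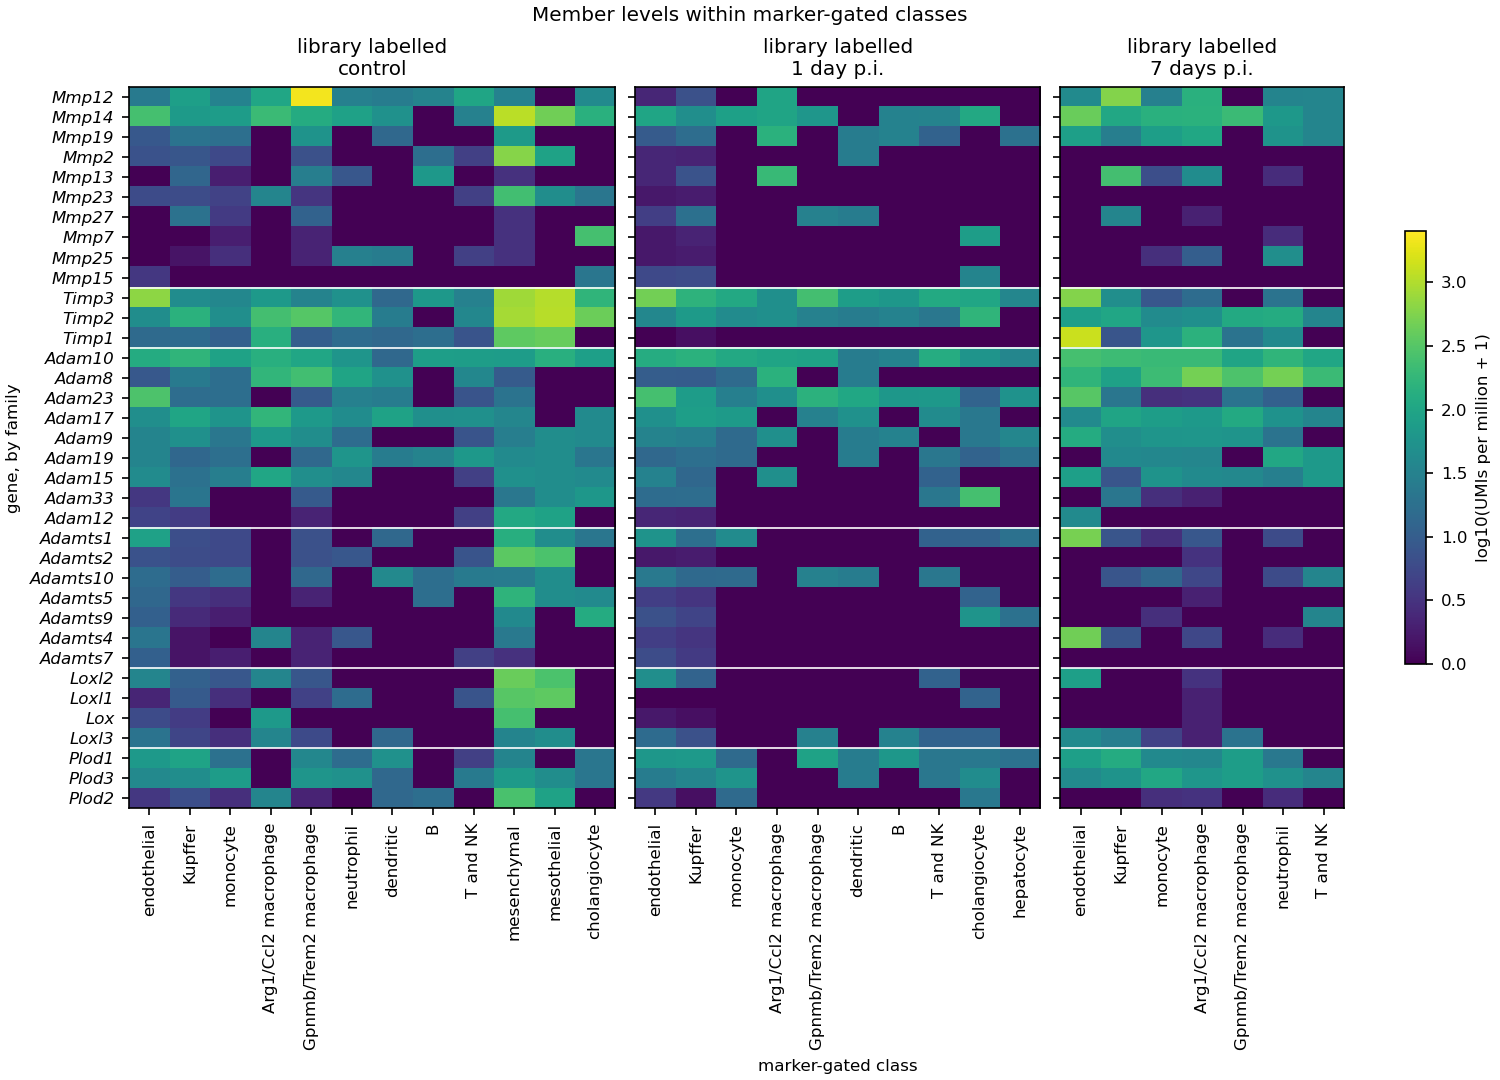
Level of each member with at least 30 UMIs, as log10(CPM + 1), in the marker-gated classes with at least 20000 UMIs of each library. Rows are genes by family and columns are classes, and yellow is high. The mesenchymal column of the library labelled control is bright from Mmp14 (1107 CPM) through Timp2 (874) to Loxl2 (423), and no mesenchymal column exists for the other libraries.

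Across the members with at least 30 UMIs in the classes of a library, a highest class with at least 10 UMIs was found for 32, 19 and 16 members in the libraries labelled control, 1 day p.i. and 7 days p.i. In control the highest class was mesenchymal for 19 of 32, Kupffer-gated for 5 and Gpnmb/Trem2 macrophages for 3. At 1 day p.i. it was endothelial for 9 of 19 and Kupffer-gated for 7. In the library labelled 7 days p.i. it was Kupffer-gated for 5 of 16, with 3 each for Arg1/Ccl2 macrophages, neutrophils and endothelial cells. The ratio to the next class had an interval that included 1 for 12 of the 32, 8 of the 19 and 8 of the 16 members, among them 6 of the 19 with a mesenchymal lead in control (Adam15, Adam33, Adamts4, Adamts10, Loxl3 and Mmp19), 5 of the 7 with a Kupffer lead at 1 day p.i. and all 3 with an Arg1/Ccl2 lead at 7 days p.i. These counts depend on which classes a library held, since mesenchymal cells were 4.35%, 0.151% and 0.0178% of all cells. The same count was not made over all genes. Whether such leads are particular to the members therefore cannot be read from these counts.

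Within the mesenchymal cells of the library labelled control, 82 cells took a Postn/Aspn subset (markers Postn, Aspn, Cthrc1, Tnc, Col12a1 and Col5a2) and 236 a fibroblast subset (Dpt, Mfap5, Pi16, Clec3b, Lum and Dcn). A further 11 cells took a stellate subset and 123 stayed undivided, and these are not part of the ratios. Undivided cells held Loxl2 at 395 CPM and Timp3 at 1193. Loxl2 was at 736 CPM in Postn/Aspn cells and 283 in fibroblast cells, a ratio of 2.60 (1.86 to 3.65). Intervals also lay above 1 for Adam12 (2.06, 1.08 to 3.95), Plod2 (1.95, 1.27 to 2.99), Lox (1.76, 1.17 to 2.63), Mmp14 (1.75, 1.43 to 2.13) and Timp1 (1.68, 1.16 to 2.43). Timp2 was lower in Postn/Aspn cells, at 573 against 1119, a ratio of 0.512 (0.386 to 0.670). For Mmp2, Loxl1, Mmp23, Timp3, Adamts2, Adamts5 and 4 more members with at least 20 UMIs in both subsets together the interval included 1. Cells of 1 library share their livers, and no test between the subsets was made.

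**Figure D5:**
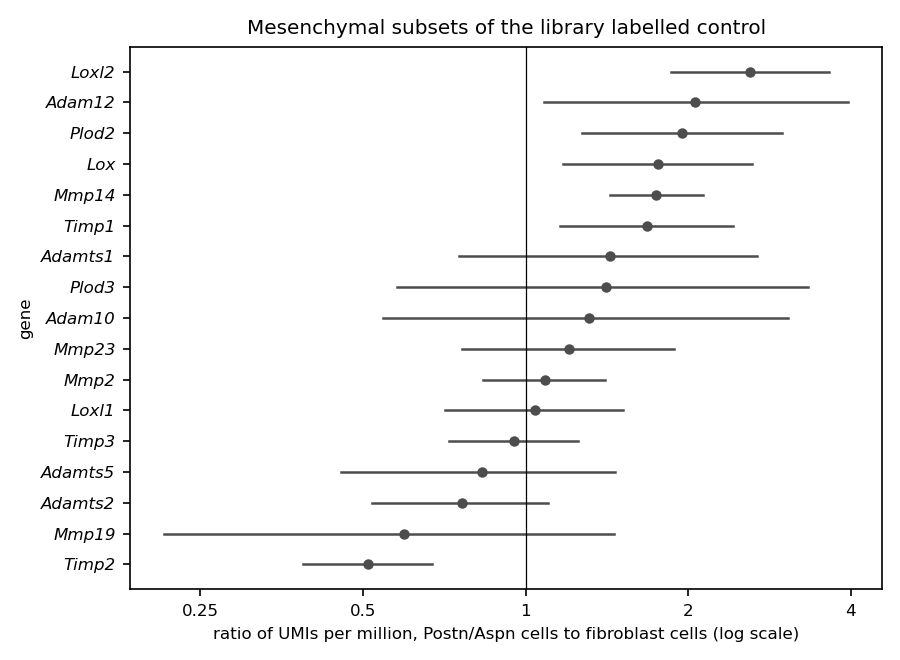
Ratio of CPM in 82 Postn/Aspn cells to 236 fibroblast cells of the library labelled control, on a log axis, with 95% counting intervals, for members with enough UMIs in the 2 subsets. Loxl2 lay furthest above 1, at 2.60, and Timp2 furthest below, at 0.512.

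Other genes of collagen turnover were taken from a list of 37, of which 36 were in the tables. At 1 day p.i. against control, 3 of 32 were at least 2-fold higher and 8 lower, where over all genes 13.1% were higher and 6.47% lower. The higher ones were plasminogen (Plg, 188 against 13.7 CPM), which hepatocytes secrete, the convertase Pcsk6 (6.55 against 1.75) and the procollagen enhancer Pcolce2 (56.3 against 27.2). Among the lower ones were cathepsin K (Ctsk, 1.80 against 22.7), cathepsin S (Ctss, 1034 against 2401), the collagen chaperones Serpinh1 (35.5 against 108) and Fkbp10, the collagen-binding protein Sparc, the plasminogen activator Plat and the collagen uptake receptor Mrc2. At 7 days p.i. against control, 7 of 30 were higher and 12 lower, against 8.8% and 24.5% of all genes. The urokinase receptor Plaur was at 310 against 15.3 CPM, 20.2-fold (16.7 to 24.6) higher, and transglutaminase 2 (Tgm2), another crosslinking enzyme, at 589 against 148, 3.98-fold (3.69 to 4.28) higher. Furin, which activates metalloproteinase precursors, was 2.13-fold (1.73 to 2.63) higher, Rhbdf2, a partner of Adam17, 2.98-fold (2.26 to 3.94), and the prolyl hydroxylase subunits P4ha1 and P4hb 2.84-fold and 2.56-fold. The procollagen C-proteinase Bmp1 and its enhancers Pcolce and Pcolce2 were all lower, at 0.981, 1.96 and 9.81 against 13.1, 24.1 and 27.2. Plat, Plg, Sparc, Serpinh1, Fkbp10 and Mrc2 were lower as well, as were the protease inhibitor Serpine2, the Rhbdf2 relative Rhbdf1 and the prolyl hydroxylase Lepre1. Against 1 day p.i., 7 of 27 were higher at 7 days p.i. and 9 lower, against 11.5% and 30.3% of all genes. Relative to the median gene the counts were 9 and 7, where 39.3% of all genes past 2-fold were higher. Plaur (32.7-fold), Ctsk (7.08-fold), Ctss, Rhbdf2, P4ha1 and Tgm2 (3.79-fold) were among the higher ones.

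The 32 members under 30 UMIs had totals of 1 to 29 UMIs over the 3 libraries, under the minimum set for a comparison. They include 12 Adam genes, 10 Adamts genes, 8 Mmp genes, Timp4 and Loxl4. Of 25 ratios between libraries that could be formed for them with UMIs in both, 4 had an interval that left out 1, and these are named after their values were seen. Loxl4 held 14 UMIs at 1 day p.i. against 2 in control, a ratio of 9.18 (2.11 to 83.3), and Adamts15 held 3 against 19, a ratio of 0.207 (0.0393 to 0.704). At 7 days p.i., Adamts14 held 1 UMI against 20 in control and Adam3 4 against 1.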

How the data were processed

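Drop-seq was run on 3 libraries, 1 per condition, each pooled from several livers. Per the file headers, the deposited counts are UMIs per gene and barcode made by the authors with the Drop-seq tools from reads of mapping quality of at least 10, with UMIs merged at an edit distance of 1. The submitters' processing notes name STAR 2.5.2a and a human genome build although the symbols are mouse, so no coordinates were taken from the files, and promoter sequences came from RefSeq on GRCm38.p6. The headers also state a minimum of 200 genes per barcode, but barcodes below it were listed and were left out here as cells.

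Counts were summed per library and gated class in Python 3.11.15 (numpy 2.4.6, scipy 1.17.1, pandas 2.3.3, matplotlib 3.10.9) and divided by the summed UMIs, as counts per 1000000 (CPM). A cell took a class with at least 2 of its gate markers and a lead of 1, hepatocytes apart, which were gated by a marker share of at least 10% of UMIs. No doublet caller was run, and doublets and free RNA may carry UMIs between classes. With 1 library per condition no count model was fitted. Ratios carry conditional binomial (Clopper-Pearson) intervals and levels exact Poisson intervals, both 95%, and a count of 0 was bounded at 3 UMIs. The intervals were tested on simulated independent Poisson counts only. That setting leaves out the clumping of UMIs in single cells, so it does not show how the intervals behave with such clumping. Members with at least 30 UMIs could be named, and those with at least 100 UMIs or past 2-fold are given in every library. The members, gene lists and gates were chosen with earlier results of these data known. Alternatives changed the barcode filter, mitochondrial filter, denominator, centring, fold, UMI minimum and gates. Leaving out barcodes found in another library was chosen after seeing the data. The counts over the turnover genes cover the whole list, of which not every gene is reported here by name.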

Additional observations from a re-analysis of the deposited data

Results flagged for a closer look

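The ratio of 7 days p.i. to 1 day p.i. for Mmp13 pointed in opposite directions in 2 macrophage gates. It was 38.5 (20.8 to 74.3) in Kupffer-gated cells and 0.229 (0.0831 to 0.879) in Arg1/Ccl2 macrophages, where the 1 day p.i. value rests on 4 UMIs in 1 of 31 cells. The difference between the gates was not tested.

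Barcodes with fewer than 200 genes, which no comparison of cells used, also held member transcripts, and some families were above the same barcodes of the library labelled control. In the order control, 1 day p.i. and 7 days p.i., Mmp members were at 168, 93.7 and 231 CPM, Timp members at 196, 307 and 176, Adam members at 248, 381 and 949, and Plod members at 54.5, 71.3 and 64.4. Adamts members were at 55.0, 54.2 and 14.5 and Lox and Loxl members at 38.1, 30.1 and 3.94, not above control. What these barcodes hold was not tested.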

How the results depend on the processing

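No paired analysis was possible because there is 1 library per condition, and for the same reason no library could be left out. Of the alternative values of ratios between libraries, 691 stayed within the counting interval or shifted by less than a small fixed log2 limit. A further 77 moved beyond both, and 0 of the called ones changed direction. Within classes the numbers were 516, 41 and 3. With at least 10 UMIs, 5 members were higher and 22 lower at 1 day p.i. against control, and 14 were lower at 7 days p.i. against 1 day p.i., where at least 100 UMIs gave 5. A 3-fold limit left 4 members higher at 7 days p.i. and 1 at 1 day p.i. against control. Of all genes past 2-fold at 10 UMIs, 63.4% were higher at 1 day p.i. against control. Between 7 days p.i. and 1 day p.i. this share was 24.9%, and 34.4% at 100 UMIs. Of all genes past 3-fold, 22.3% were higher at 7 days p.i. and 71.0% at 1 day p.i. against control. For the turnover genes, at least 100 UMIs gave 4, 7 and 4 lower in the 3 comparisons, where 69.1%, 34.6% and 34.4% of all genes past 2-fold were higher. A limit of 1.5-fold gave 15 lower at 1 day p.i. against control and 12 higher at 7 days p.i. against 1 day p.i. The shares of all genes higher were 60.4% and 32.2% there. The 3-fold limit gave 3 turnover genes higher at 7 days p.i. against control. Over every listed barcode, the family ratios to control were 0.223 for Mmp and 0.905 for Timp at 1 day p.i. and 2.40 for Adam at 7 days p.i., and Adam was at 2.10 between 7 days p.i. and 1 day p.i. Without mitochondrial UMIs, the ratios of 7 days p.i. to control were 0.536 for Mmp, 0.410 for Timp, 1.74 for Adam and 0.811 for Plod, and those to 1 day p.i. were 2.61, 0.490, 1.58 and 0.986. Mitochondrial UMIs were 20.5%, 21.7% and 4.10% of the totals, which sets this shift by construction. Requiring 3 gate markers, or a lead of 2, left 0 members highest in endothelial cells at 7 days p.i., because the class then fell under 20000 UMIs. With 3 markers the ratio of 7 days p.i. to 1 day p.i. reversed for Adamts1 in Kupffer-gated cells (1.48) and for Adam9 in monocytes (0.574), and with a lead of 2 for Adamts1 (2.23). The cause was not tested. The 16 members with a highest class at 7 days p.i. kept it in 10 of 14 under a lead of 2 and in 13 of 15 with 3 markers. Ratios to control that rest on few UMIs also moved by over 1.5 times. At 1 day p.i., Lox went from 0.0469 to 0.0263 at 400 genes, Loxl1 from 0.0259 to 0.0148 without shared barcodes and 0.0392 among cells with at most 20% mitochondrial UMIs, and Timp1 from 0.0139 to 0.00564 without shared barcodes and 0.0311 over every listed barcode. At 7 days p.i., Adamts2 went from 0.0481 to 0.0250 without the cell with most of its UMIs, and Plod2 from 0.0829 to 0.0552 at 400 genes. Mmp27 at 7 days p.i. against 1 day p.i. went from 0.225 to 0.340 at 400 genes. Timp1 at 7 days p.i. against 1 day p.i. ranged from 81.1 over every listed barcode to 497 without shared barcodes, since 1 day p.i. held 3 UMIs.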
